A study of Peromyscus californicus with 17 samples.

Results

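The genes described here serve antigen processing and presentation, the route by which a cell shows peptides to T lymphocytes. They are the 9 rows of the lung table with the symbols B2m, Tap1, Tap2, Tapbp, Psmb8, Psmb9, Nlrc5, Cd74 and Ciita, out of 27786 genes, and were chosen by name. All 9 had a value in each of the 17 animals and passed the filter of at least 1 FPKM in at least 1 animal (FPKM, reads per kilobase of gene, scaled to the counted reads of the library), as did 14759 genes in all. The animals were male P. californicus of a genetically diverse stock, 12 to 15 months old, with 1 lung RNA library each. In the bonded group (B1 to B6, n = 6) each male had lived with a partner for 4 months. In the bond-disrupted group (BD1 to BD6, n = 6) the male was taken out of the shared cage after the same time and its lung was collected 7 days later. In the virgin group (V2 to V6, n = 5) males of similar age lived 3 to a cage by the labels, while the study's text also speaks of smaller groups, so mating history and the kind of housing cannot be told apart. The comparisons ask whether bonding history is visible in the lung transcriptome. Animals with the same number are relatives. They are siblings except where a virgin is a cousin, as the paper's text states for V3.

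Class I molecules are carried by almost every cell and hold peptides made in its own cytosol. Psmb8 and Psmb9 encode catalytic subunits of the immunoproteasome, which replace Psmb5 and Psmb6 and change how proteins are cut. Tap1 and Tap2 form the transporter that moves the peptides into the endoplasmic reticulum, Tapbp encodes tapasin, which brings empty class I molecules to that transporter, and B2m encodes beta-2 microglobulin, the light chain of every class I molecule. Nlrc5 is the transactivator of class I genes. Class II molecules present proteins taken up from outside and are found mainly on B cells, dendritic cells, macrophages and, in the lung, alveolar type 2 cells. Cd74 encodes the invariant chain that guides them to the endosome, and Ciita is their master transactivator. Interferon gamma raises most of these genes, in part through the transcription factor Irf1.

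Library depth, worked out from the values, was about 30800000 to 68200000 reads in bonded animals, 43900000 to 59400000 in bond-disrupted animals and 38000000 to 44900000 in virgins, with the highest in B3. Whether a counted read stands for 1 read or for a pair of reads is not given in the sources used here, so the fragments behind these depths and read counts may be fewer by a factor of 2. The members held 267 reads (Ciita in B5) to 209019 reads (Cd74 in B3), so that counting error alone, taken as if each fragment had been counted as 2 reads, was at most 8.65% of a value for Ciita and 3.87% for every other member. The lung was recognisable by its own markers. The 4 of 6 alveolar type 2 genes that could be used summed to between 14830 and 32120 FPKM per animal, while 5 heart muscle genes summed to between 41.2 and 426 FPKM. No 2 libraries of a group agreed within sampling noise.

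The deposited values of these genes cannot be compared between animals as they stand, because the reads in each column had been divided by the length of another gene. The length came from the gene 1 row above in the first column, 2 rows above in the second, and so on. For Ciita, whose own length came out at 6495 bases, the lengths used ran from 72 to 14996 bases, and the deposited values ran from 0.974 to 367 FPKM. Of the 153 member values, 149 became a whole number of reads, within 3% of a read, when multiplied back by the length of that other gene, and 10 did so with the gene's own length. The 4 that did not were all values of Tapbp. Lengths had been chosen so that reads came out whole, so the count of 149 describes the fit and is not separate evidence for it. Tap2, Psmb8, Tap1 and Psmb9 stand in 4 consecutive rows, so in the first columns Psmb8, Tap1 and Psmb9 carried the length of another member. B2m in B3 is the 1 value to which the correct length had been applied, since the gene in the row used had the same length of 1843 bases. With each gene's own length, Ciita ran from 1.19 to 4.95 FPKM, a 4.17-fold range in place of 377-fold, and B2m from 1041 to 1622 FPKM, 1.56-fold in place of 17.6-fold. The SD of log2 FPKM over the 17 animals fell from between 0.75 (Psmb8) and 2.33 (Ciita) as deposited to between 0.18 (B2m and Tapbp) and 0.66 (Ciita). For all genes averaging 100 reads or more (13484), the median SD was 1.54 as deposited and 0.23 with own lengths. All levels given from here on use each gene's own length.

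**Figure D1:**
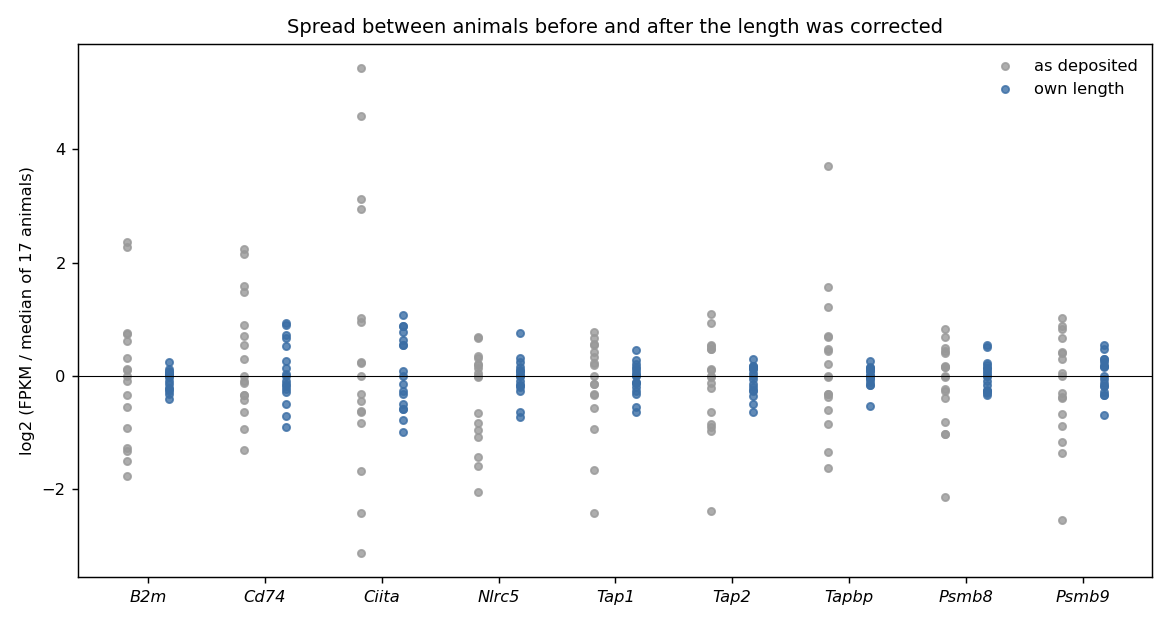
Each point is 1 of 17 animals, plotted for each gene as log2 of FPKM over the median of that gene (y axis), with grey points for the deposited values and blue points for values with the gene's own length. The grey points of Ciita span a 377-fold range and its blue points a 4.17-fold range, and the blue points are the tighter set for all 9 genes.

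Per length, B2m and Cd74 were the most abundant members by far. B2m stood at 1327 ± 157 FPKM (SD, n = 17) and Cd74 at 1224 ± 463 FPKM. These neighbours in the order overlapped, with B2m above Cd74 in 12 of 17 animals. Psmb8 followed at 84.2 ± 16.4 FPKM, Psmb9 at 73.5 ± 16.2 FPKM and Tapbp at 68.0 ± 7.77 FPKM. Psmb8 exceeded Psmb9 in 16 of 17 animals, whereas Psmb9 exceeded Tapbp in only 11. Tap1 stood at 39.7 ± 7.55 FPKM and Tap2 at 35.3 ± 6.13 FPKM, with Tap1 the higher in 13 of 17 animals. The transactivators came last, Nlrc5 at 6.69 ± 1.62 FPKM and Ciita at 2.74 ± 1.22 FPKM, and Nlrc5 was above Ciita in every animal. Where neighbours were separated in all 17 animals (Cd74 and Psmb8, Tapbp and Tap1, Tap2 and Nlrc5, Nlrc5 and Ciita) the order was the same throughout.

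The class II genes had the widest relative spread. Over all animals the coefficient of variation was 37.8% for Cd74 and 44.5% for Ciita, against 11.4% for Tapbp, 11.8% for B2m and between 17.4% (Tap2) and 24.3% (Nlrc5) for the other members. No member had an animal that stood outside its group by Dixon's test, in 27 groups tested.

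**Figure D2:**
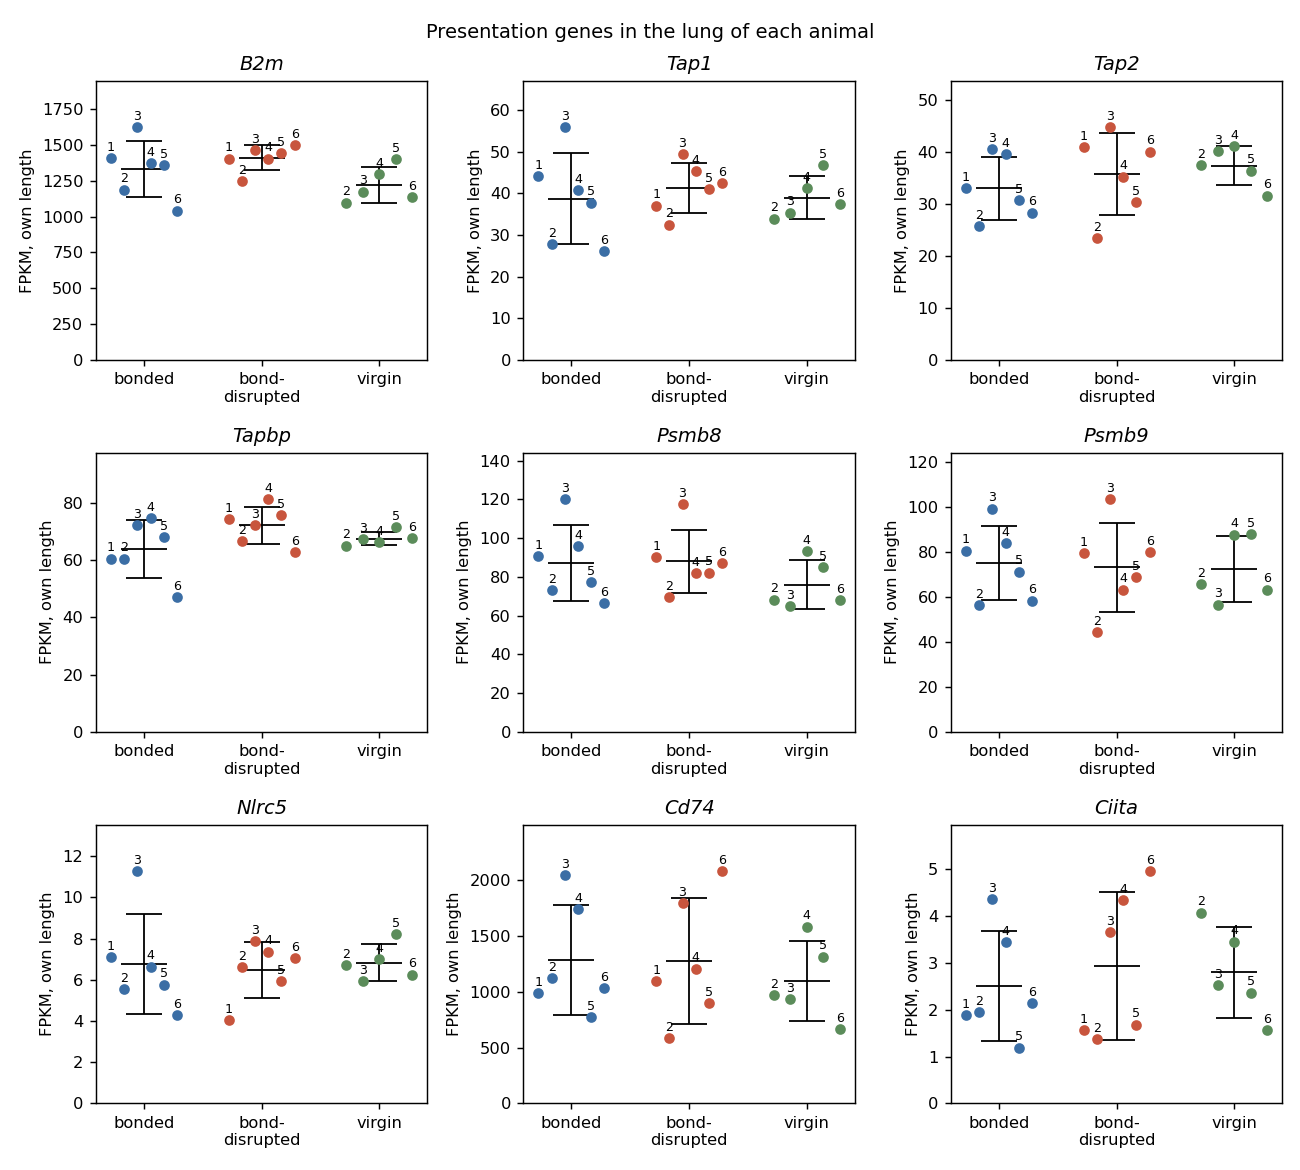
Own-length FPKM (y axis, from 0) of the 9 genes in each animal, by group (x axis), where points carry the number of the animal and black bars are group means ± SD (n = 6 bonded, 6 bond-disrupted, 5 virgin). The ranges of the 3 groups overlap for all 9 genes, and animals numbered 3 are high in the bonded and the bond-disrupted group.

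None of the 9 genes was called as different between groups of differing bonding history. A gene was called in limma at a Benjamini-Hochberg adjusted p under 0.1, over 14759 genes, and a fold change of at least 2. By this rule 0 of 9 members were called in each comparison, where the share called among all genes was 0% for BD against B, 0% for V against B and 0% for V against BD. The lowest adjusted p of any gene was 0.477, 0.922 and 0.946 in these comparisons. At an unadjusted p under 0.05, 0 of 9 members passed in each comparison, against 5.88% (868 genes), 3.55% (524 genes) and 4.19% (618 genes) of all genes tested. This fit had no block for relatives. With such a block 1 of the 27 member values passed, Tapbp in BD against B, as given below. The limma alternative on recovered reads, voom, also called 0 genes. For each member the ranges of any 2 groups overlapped. This is a description only, since the share of all genes with overlapping ranges was not worked out.

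The 95% intervals bound how large a difference could have gone unseen. Across the 9 members and 3 comparisons they lay between −0.89 and 0.73 on the log2(FPKM + 1) scale, so that each of the 27 intervals excluded a 2-fold difference in either direction on that scale, which understates changes of Ciita. They were narrow for B2m and Tapbp (standard errors of 0.10) and wide for Cd74 (0.31 to 0.32). In BD against B, 6 of 9 members had a log2 fold change above 0 and the median was 0.093, beside 0.006 over all genes. In V against B it was 5 of 9 and 0.045, beside 0.006. In V against BD it was 4 of 9 and −0.079, beside 0.004. Comparisons that share a group share its animals, so they are not independent of each other.

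**Figure D3:**
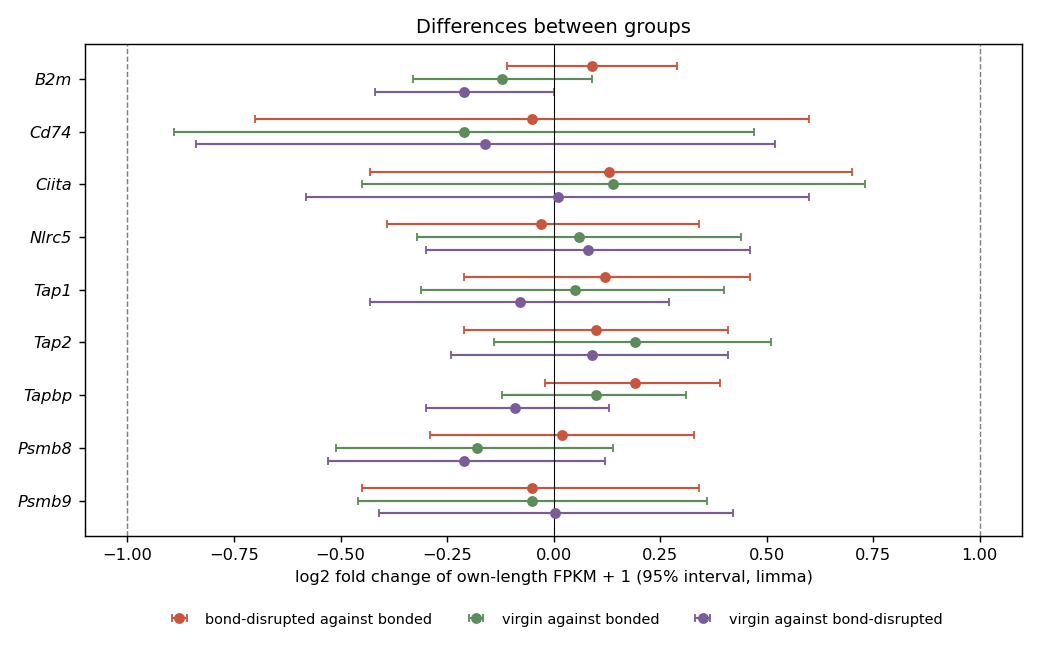
Log2 fold changes of own-length FPKM + 1 (x axis) for the 9 genes (y axis) in the 3 comparisons, as points with 95% limma intervals, and dashed lines at a 2-fold change in either direction. The intervals lie between −0.89 and 0.73, all include 0 and none reaches the dashed lines.

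The class I light chain had the smallest unadjusted p of the 27, between virgins and bond-disrupted animals. B2m was at 1098, 1175, 1296, 1400 and 1138 FPKM in V2 to V6, at 1247, 1423 and 1500 FPKM (lowest, median, highest) in bond-disrupted animals, and at 1041, 1368 and 1622 FPKM in bonded animals. Of the virgins, 3 were below every bond-disrupted animal, while V4 and V5 lay within their range, and the lowest and the highest animal of all were both bonded (B6 and B3). The log2 fold change of V against BD was −0.21 (standard error 0.10, 95% interval −0.42 to 0.00029), with a limma adjusted p of 0.946 and an unadjusted p of 0.0503. For BD against B it was 0.09 (interval −0.11 to 0.29) and for V against B −0.12 (−0.33 to 0.09).

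Tapasin was the member with the largest shift relative to its error between bond-disrupted and bonded animals. Tapbp had its lowest, median and highest values at 62.9, 73.4 and 81.4 FPKM in bond-disrupted animals and at 47.0, 64.5 and 74.8 FPKM in bonded animals. Virgins lay close together at 65.2, 67.6, 66.3, 71.6 and 67.8 FPKM. The bonded group reached lower, with B6 the lowest of the 17 animals, and BD4, BD5 and BD1 were 3 of the 4 highest. Its log2 fold change of BD against B was 0.19 (standard error 0.10, interval −0.02 to 0.39), with a limma adjusted p of 0.852 and an unadjusted p of 0.0731. With the relatives' number as a block the unadjusted p was 0.0464 and the adjusted p 0.855.

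Neither chain of the peptide transporter passed the test in any comparison. The mean of Tap1 was 38.7 ± 10.97 FPKM in B (SD, n = 6), 41.3 ± 5.96 FPKM in BD (n = 6) and 39.0 ± 5.195 FPKM in V (n = 5). Its log2 fold changes were 0.12 for BD against B (interval −0.21 to 0.46), 0.05 for V against B (−0.31 to 0.40) and −0.08 for V against BD (−0.43 to 0.27). Tap2 averaged 33.0 ± 6.03, 35.8 ± 7.86 and 37.4 ± 3.72 FPKM, and its largest log2 fold change was 0.19 for V against B (−0.14 to 0.51). The ratio of Tap1 to Tap2 within an animal ran from 0.881 in V3 to 1.39 in BD2, with a median of 1.1.

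The immunoproteasome subunits overlapped between the 3 groups. Psmb8 had lowest, median and highest values of 66.3, 83.9 and 120 FPKM in bonded animals and of 69.4, 84.6 and 118 FPKM in bond-disrupted animals, and stood at 68.3, 65.01, 93.5, 84.9 and 68.1 FPKM in V2 to V6. B3 and BD3, which are siblings, were the highest of the 17 animals for both subunits, and V3, their cousin, was the lowest for Psmb8. The log2 fold changes of Psmb8 were 0.02 (interval −0.29 to 0.33) for BD against B, −0.18 (−0.51 to 0.14) for V against B and −0.21 (−0.53 to 0.12) for V against BD. Those of Psmb9 were −0.05 (−0.45 to 0.34), −0.05 (−0.46 to 0.36) and 0.0036 (−0.41 to 0.42). Set against the constitutive subunits they replace, Psmb8 came to 0.843 to 1.58 times Psmb5 (median 1.07) and Psmb9 to 0.541 to 1.15 times Psmb6 (median 0.775). Both ratios were highest in B3. Group means of the ratio of Psmb8 to Psmb5 were 1.08 ± 0.269 (SD) in bonded, 1.14 ± 0.214 in bond-disrupted and 0.98 ± 0.114 in virgin animals, and those of Psmb9 to Psmb6 were 0.816 ± 0.208, 0.778 ± 0.19 and 0.834 ± 0.151, in the opposite order and within the spread of the groups.

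Among the transactivators, the mean of Nlrc5 was 6.77 ± 2.42 FPKM in B (SD, n = 6), 6.48 ± 1.37 FPKM in BD (n = 6) and 6.83 ± 0.884 FPKM in V (n = 5). B3, at 11.3 FPKM, was well above the next animal, V5, at 8.23 FPKM. Log2 fold changes of Nlrc5 were −0.03 for BD against B (interval −0.39 to 0.34), 0.06 for V against B (−0.32 to 0.44) and 0.08 for V against BD (−0.30 to 0.46). Ciita had lowest, median and highest values of 1.19, 2.04 and 4.36 FPKM in bonded animals and of 1.38, 2.67 and 4.95 FPKM in bond-disrupted animals, and stood at 4.07, 2.52, 3.45, 2.36 and 1.57 FPKM in V2 to V6. In each group it differed more than 2-fold between animals. In the RefSeq annotation Ciita overlaps Dexi and LOC128123260, and how reads in the shared stretch were counted is not given in the sources used here.

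The invariant chain differed by more than 2-fold between animals of each group. Cd74 had lowest, median and highest values of 772, 1075 and 2042 FPKM in bonded animals and of 581, 1149 and 2080 FPKM in bond-disrupted animals, and stood at 967, 935, 1583, 1314 and 668 FPKM in V2 to V6. BD6, B3, BD3 and B4 were the highest and BD2 was the lowest. The group means were 1282 ± 495 FPKM (SD, n = 6), 1275 ± 562 (n = 6) and 1094 ± 357 (n = 5). Log2 fold changes were −0.05 for BD against B (interval −0.70 to 0.60), −0.21 for V against B (−0.89 to 0.47) and −0.16 for V against BD (−0.84 to 0.52).

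The levels of most members went together from animal to animal. Group means were removed and each of the 36 pairs was compared over the 17 animals. All 36 Pearson r were above 0, from 0.13 to 0.93 with a median of 0.65, while the median r of a member with the 13102 other genes that passed the filter and had at least 100 mean reads lay between −0.08 (Ciita) and 0.03 (Tapbp). In a two-sided permutation test within groups, adjusted over the 36 pairs, 22 pairs passed 0.05 for r and 22 for Spearman's rho. Of the 22 passing for r, 17 still did after the 2 animals farthest from the median were left out. Without B3, the deepest library, 15 pairs passed and the median r was 0.56, and without BD2 it was 18 pairs. Since many animals are relatives, the test was repeated with the 5 families that have an animal in every group permuted whole, an exact test of 120 permutations whose smallest p is 0.00833. By it 15 pairs passed, all among the 22. The 7 lost were Cd74 with B2m and Tap1, Tap2 with B2m, Tap1 and Ciita, Ciita with Nlrc5, and B2m with Tapbp. With family means also removed the r ran from −0.01 to 0.96 with a median of 0.59. With the values as deposited, 0 pairs passed and the median r was −0.08.

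**Figure D4:**
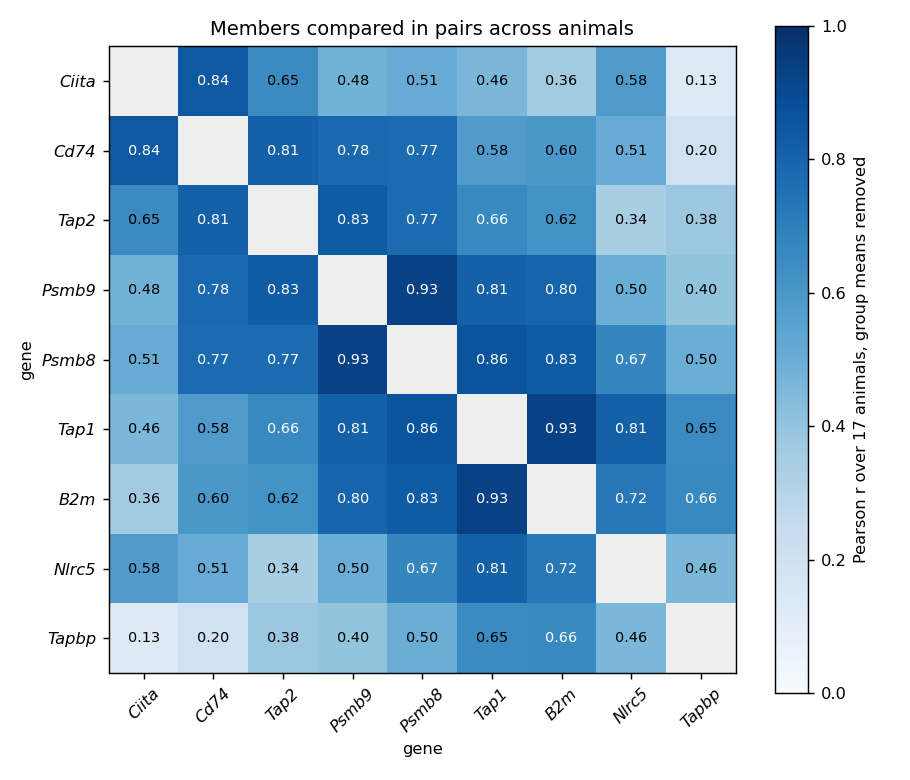
Pearson r over 17 animals, with group means removed, for each pair of the 9 genes (both axes), where darker blue is a higher r. Psmb8 with Psmb9 and B2m with Tap1 reach 0.93, Ciita with Cd74 reaches 0.84, and the lowest value is 0.13 for Ciita with Tapbp.

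Selected pairs with a high r are given with their tests. Psmb8 and Psmb9, subunits of the same particle, had r = 0.93 and rho = 0.95 (both permutation p = 1e-05, the smallest that 100000 resamples can give, adjusted p = 0.00036), and r = 0.92 without B3 and BD3. B2m and Tap1 had r = 0.93 (permutation p = 4e-05, adjusted p = 0.00072) and rho = 0.87 (permutation p = 0.00017, adjusted p = 0.00126), and r = 0.91 without B6 and V2. Psmb8 had r = 0.86 with Tap1 (permutation p = 6e-05, adjusted p = 0.00072), and 0.83 without B2 and B6. With B2m it had r = 0.83 (permutation p = 0.00027, adjusted p = 0.00121), and 0.81 without B6 and V2. Cd74 and its transactivator Ciita had r = 0.84 (permutation p = 0.0002, adjusted p = 0.0012) and rho = 0.82 (permutation p = 0.00033, adjusted p = 0.00148), and r = 0.78 without BD2 and BD6. Nlrc5 had its highest r with Tap1 (r = 0.81, adjusted permutation p = 0.00224, rho = 0.82, adjusted p = 0.00126, and r = 0.82 without B3 and BD1), and r = 0.72 with B2m (adjusted permutation p = 0.0124).

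Cd74, the class II member, passed with 5 class I members, namely Tap2, Psmb9 (r = 0.78, adjusted permutation p = 0.00363), Psmb8 (r = 0.77, adjusted p = 0.00276), B2m (r = 0.60, adjusted p = 0.0215) and Tap1. With families permuted whole, Cd74 still passed with Tap2, Psmb8 and Psmb9, and not with B2m (adjusted permutation p = 0.06) or Tap1 (adjusted p = 0.0682). For Tap2 the r was 0.81 with Cd74 (adjusted permutation p = 0.00227), 0.83 with Psmb9 (adjusted p = 0.00121) and 0.66 with Tap1 (adjusted p = 0.0145), and the last no longer passed without B2 and B6 (r = 0.55, adjusted p = 0.0953). For Tap1 the r with Cd74 was 0.58 (adjusted permutation p = 0.0324, and 0.0972 without BD2 and BD6). The differences between these r were not tested. Ciita passed with 3 of the other 8 members (Cd74, Tap2 and Nlrc5), and only the pair with Cd74 still passed with 2 animals left out. Tapbp passed with B2m alone (r = 0.66, adjusted permutation p = 0.0373), where rho was 0.46 (adjusted p = 0.132) and r was 0.35 without B6 and V2, so that relation rests on those animals.

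**Figure D5:**
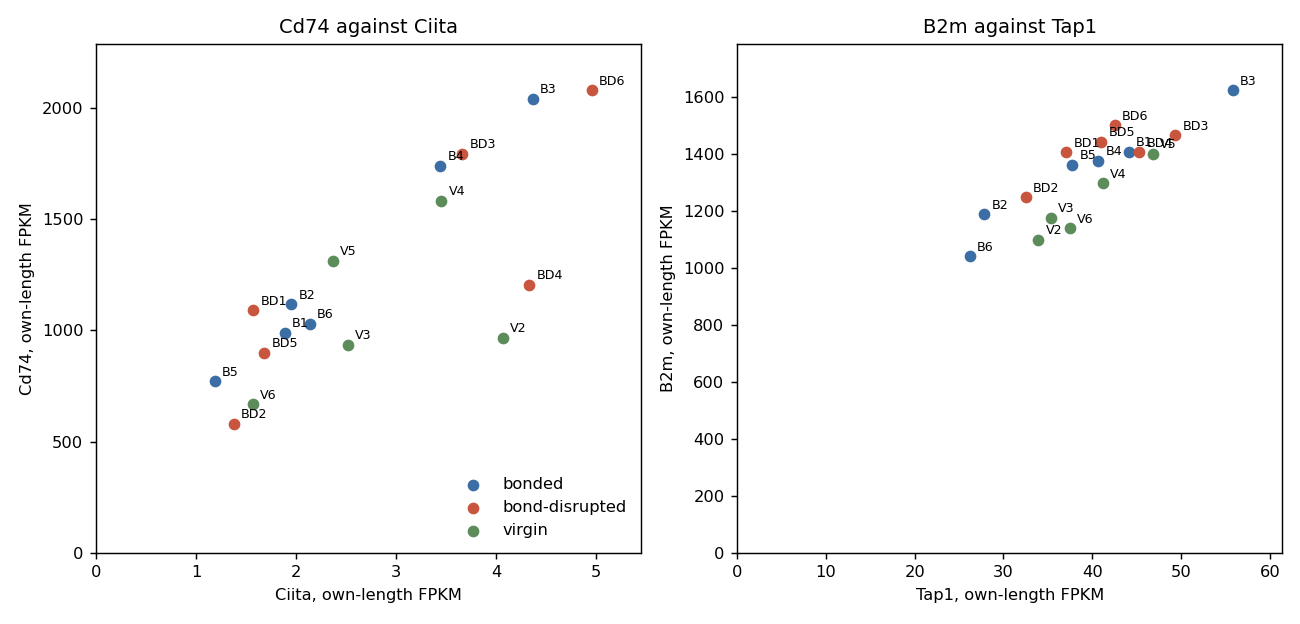
Own-length FPKM of Cd74 against Ciita (left) and of B2m against Tap1 (right), 1 point per animal coloured by group, with both axes from 0. The 3 groups are mixed along both trends, with B3 and BD6 high and BD2 low for Cd74, and V2 and BD4 high for Ciita relative to their Cd74.

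The animals at the ends were largely the same from gene to gene. On the log2(FPKM + 1) scale, B3, BD3 and B4 were above the mean of all animals for 9 of 9 members, and BD6 and V5 for 8. B2 and B6 were above it for 0 of 9 members and BD2 and V6 for 1. BD6 was the highest animal for Cd74 and Ciita and the second highest for B2m, but the 14th for Tapbp. V2 had the 4th highest Ciita and the 16th B2m.

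The genes most like each member were taken by the highest r, which is a description with no test. For Cd74 they were LOC128114006 (r = 0.995), LOC128114007 (r = 0.990) and LOC128114003 (r = 0.988), protein-coding genes without a symbol in the annotation table. The first 2 lie 2 and 3 rows below Psmb9 and the last lies 6 rows above Tap2. LOC128114003 was itself abundant, at 193 to 832 FPKM. Within 10 rows of the block of Tap2, Psmb8, Tap1 and Psmb9, 14 other genes had at least 100 mean reads, and 6 of them had an r of at least 0.9 with Cd74, compared with 0.733% (96 genes) of the 13102 genes compared. Neighbouring genes of a family may share reads, and how reads with several matches were counted is not given in the sources used here.

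For Ciita the nearest genes were Fmnl1, a formin of blood cells (r = 0.973), Dock2, an activator of Rac in leukocytes (r = 0.972), and Pik3cg, the catalytic subunit of a leukocyte phosphoinositide 3-kinase (r = 0.969). Ciita and Cd74 had many near companions, with 278 and 361 of 13102 genes at an r of at least 0.8, against 139 for Tap2, 63 for Psmb9, 41 for Psmb8, 16 for Tap1, 13 for Nlrc5, 7 for B2m and 5 for Tapbp. Nlrc5 was nearest to LOC128112465 (r = 0.929), LOC128122905 (r = 0.876) and Parp14, an interferon-induced ADP-ribosyltransferase (r = 0.862). B2m was nearest to Tap1, LOC128106296 (r = 0.902) and Rab29 (r = 0.842), and Tap1 to B2m, LOC128106296 (r = 0.924) and LOC128122978 (r = 0.903). Psmb8 was nearest to Psmb9, Ube2l6, which encodes the conjugating enzyme for the interferon-induced modifier Isg15 (r = 0.920), and Scly (r = 0.906). Psmb9 was nearest to Psmb8, Relb, a subunit of NF-kappaB (r = 0.905), and Gltp (r = 0.897). Tap2 was nearest to Sds (r = 0.916), Lrrfip1 (r = 0.902) and LOC128120951 (r = 0.896), and Tapbp to LOC128112068 (r = 0.835), Zrsr2 (r = 0.814) and Sun2 (r = 0.804).

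Beyond the 9 members, 38 genes of the wider pathway passed the filter out of 44 listed. None was called in any comparison, with a lowest limma adjusted p of 0.82. At an unadjusted p under 0.05, 2 were higher and 0 lower in BD against B, 0 in either direction in V against B, and 1 was lower in V against BD, beside 5.88%, 3.55% and 4.19% of all genes in either direction. The genes past that threshold were Ifngr1, the ligand-binding chain of the interferon gamma receptor (65.6 against 55.9 FPKM in BD against B, log2 fold change 0.23, limma adjusted p of 0.82), Canx, the chaperone calnexin (154 against 140.1 FPKM, 0.13, adjusted p of 0.845), and Psmb7, a constitutive proteasome subunit (62.5 against 74.2 FPKM in V against BD, −0.23, adjusted p of 0.946). The medians of the 38 log2 fold changes were 0.034, −0.034 and −0.092 in BD against B, V against B and V against BD. Ifng itself had a median of 0 FPKM over the 17 animals and reached at most 0.611 FPKM.

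Many of these genes went with the members from animal to animal. Of the 342 pairs of a member with a pathway gene, 90 had an adjusted permutation p under 0.05 over all 342, from 15 of 38 pathway genes for Psmb8 to 1 for Tapbp. With families permuted whole, 0 of the 342 passed, where a single pair at the smallest p of that test cannot pass. All 90 were positive but for Rfxap with Ciita (r = −0.67). The members differ in how many of all genes follow them, and for 37 pathway genes of at least 100 mean reads the median r was 0.25 (Tapbp) to 0.53 (Psmb8), beside −0.08 to 0.03 over all genes. At an r of at least 0.8 stood 13.5% of them with Cd74 and with Ciita, beside 2.76% and 2.12% of all genes. With Psmb8 and Psmb9 it was 8.11% each, beside 0.313% and 0.481%, and with Nlrc5 2.7%, beside 0.0992%. With B2m, Tap1, Tap2 and Tapbp it was 0, beside 0.0534%, 0.122%, 1.06% and 0.0382% of all genes. Among the other inducible parts of the proteasome, Psme2, a subunit of its activator, had r = 0.82 with Psmb8 (adjusted permutation p = 0.00057), and Psmb10, the remaining immunoproteasome subunit, had r = 0.80 with Psmb9 (adjusted p = 0.00684). Psmb10 and the activator subunits Psme1 and Psme2 did not pass with Nlrc5, Tap2, Cd74 or Ciita, and Psme1 and Psme2 did not pass with Tapbp. Genes of the endosomal route passed with members of both classes. Ifi30, a lysosomal thiol reductase, had r = 0.94 with Cd74, Marchf1, a ubiquitin ligase for class II molecules, had r = 0.96 with Ciita, and Lgmn, an endosomal protease, had r = 0.89 with Psmb9 and 0.85 with Psmb8 (adjusted permutation p = 0.00057 for each). Lgmn had r = 0.73 with Cd74 (adjusted p = 0.0163) and 0.40 with Ciita (adjusted p = 0.299). Ctss, the protease that trims the invariant chain, passed with every member but Nlrc5 and Tapbp. Irf8, a transcription factor of leukocytes, had r = 0.91 with Cd74 (adjusted permutation p = 0.00057).

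Of the genes of the interferon gamma response, Irf1 had r = 0.85 with Psmb9 (adjusted permutation p = 0.0042) and 0.73 with Tap1 (adjusted p = 0.00359), and it did not pass with Cd74 (r = 0.52, adjusted p = 0.142) or Ciita (r = 0.30, adjusted p = 0.472). Cxcl9, a chemokine that responds to interferon gamma, had r = 0.80 with Cd74 and 0.76 with Psmb8 (adjusted permutation p = 0.00342 and 0.0042). Together the 3 usable targets outside presentation (Cxcl9, Cxcl10 and Ido1) summed to 35.5 FPKM in BD3, 22.4 in B3, 18.8 in BD6 and 11.6 in V4, and to between 1.45 and 6.71 FPKM in the other 13 animals. The first 3 of these animals are among the 4 highest for Cd74.

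Some lists of immune cell markers moved with Cd74 and Ciita, and in whole lung fewer cells of a type and less RNA per cell cannot be told apart. Of the 90 pairs of a member with a marker list, 5 passed an adjusted permutation p of 0.05. The T cell genes (3 of 6 usable: Cd4, Cd8a and Cd5) had r = 0.89 with Ciita (adjusted p = 0.003, rho = 0.84 with adjusted p = 0.0112, and r = 0.85 with 2 animals left out) and 0.88 with Cd74 (adjusted p = 0.003, rho = 0.85 with adjusted p = 0.0112). With Tap2 they had r = 0.74 (adjusted permutation p = 0.034), where rho was 0.73 and its adjusted p of 0.061 did not pass. The B cell genes (4 of 6) had r = 0.82 with Ciita (adjusted p = 0.003, rho = 0.79 with adjusted p = 0.0147, and r = 0.86 with 2 animals left out). The macrophage genes (5 of 6) had r = 0.76 with Cd74 (adjusted p = 0.034), where the adjusted p of rho, 0.061, did not pass. The B cell genes did not pass with Cd74 (r = 0.68, adjusted permutation p = 0.089) nor the macrophage genes with Ciita (r = 0.65, adjusted p = 0.125), and the natural killer genes (4 of 5) passed with neither (r = 0.57 and 0.55, adjusted p = 0.139 for both). With families permuted whole, 0 of the 90 pairs passed, where a single pair at the smallest p of that test cannot pass. These 5 pairs had an adjusted permutation p of 0.107 to 0.15 by it, so that test does not decide on them. The part of these cell types in the levels of Cd74, Ciita and Tap2 was not tested.

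The summed levels of these lists overlapped between the groups. The B cell genes summed to between 26.9 and 99.5 FPKM in bonded, 20.5 and 131 in bond-disrupted and 46.8 and 111 in virgin animals. For the T cell genes it was 13.5 to 41.8, 8.40 to 30.6 and 17.8 to 42.7 FPKM, with the lowest value in BD2, and for the macrophage genes 72.7 to 217, 109 to 254 and 84.7 to 195 FPKM. In the dendritic cell list (5 of 6 usable) Xcr1 was at 0 in at least 1 animal, and the list summed to between 16.4 and 46.1 FPKM. The 4 usable genes of the type I interferon response summed to between 19.7 and 45.7 FPKM, and neither list passed with any member.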

How the data were processed

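Lungs of 17 male P. californicus were sequenced. The submitters' processing notes name FastQC, Trim Galore 0.4.5, STAR 2.7.2, SAMtools 1.5, featureCounts and Subread 1.5.3, and the genome build and strand setting are not given in the sources used here. The authors deposited FPKM, 1 column per animal, for 27786 genes. All symbols match RefSeq's table for ASM782708v3, used for names, gene spans and row order only. That table gives no sequence and no description, so MHC genes could not be picked out by name.

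Depths and lengths were solved together as the values that turn low FPKM into whole reads (98.6% of 261167 tested values within 3%). Of 27787 lengths 26399 were settled, and 99.7% of protein-coding ones did not exceed the RefSeq span. Genes with an own length and all 17 values recovered (24976) were kept. FPKM was recomputed with own lengths, and log2(FPKM + 1) was fitted in limma 3.58.1 (R 4.3.3), with 3 groups in 1 fit, moderated variances, two-sided tests and Benjamini-Hochberg adjustment. Fold changes on this scale understate those of low genes such as Ciita. Correlations used 100000 permutations of animals within groups (Python 3.11.15, numpy 2.4.6). Recovery, fits and correlations were tested on simulated data.

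Genes named are the members, the 3 most correlated genes per member, pathway genes with an unadjusted p under 0.05, and Psmb5, Psmb6 and Psmb7. Pathway genes named for their correlations and the list correlations were chosen after their values were seen. The members and lists were chosen with earlier results of these data known. Pathway genes not used because no row or no length was found were Erap1, Ctsl, Gbp2, Gbp5 and Irgm, and Ifng was below the filter.

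In the paper an animal's number marks a family. Deviations from group means correlated above 0.1 in 5 of 6 bonded and bond-disrupted sibling pairs (r from 0.039 to 0.48) and in 2 of 10 pairs with a virgin (lowest r −0.404). Not every pair passed 0.1, so the main fit had no block and the pairing was tried as an alternative. All 6 of the sibling r were above 0, so the main fit set aside a pairing that BD against B could have used. Other alternatives were a pseudocount of 0.1, no filter, median-ratio factors, voom on recovered reads (mean of at least 10 reads), leaving out each animal, and the deposited lengths. The alternatives for the pair counts were chosen after seeing the data. Some results for genes of the pathway list are not reported here.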

Additional observations from a re-analysis of the deposited data

How the results depend on the processing

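Under the alternatives with all 17 animals and own lengths (pseudocount 0.1, no filter, median-ratio factors, voom, the block) 0 genes were called in any comparison, and no member had an adjusted p under 0.1. The pairing of relatives as a replicate block gave 828, 558 and 555 genes with an unadjusted p under 0.05 in BD against B, V against B and V against BD, against 868, 524 and 618 without it, and changed no call. The same pairing as a block in the correlations, with families permuted whole, left 15 of 36 pairs of members past 0.05 in place of 22. With no filter these counts were 1403, 965 and 1023. With lengths as deposited, 35, 85 and 33 genes were called, 1404 and 1160 genes in V against B and V against BD had an unadjusted p under 0.05, and 0 of the 36 pairs of members passed, which follows from the lengths of other genes in each column. Leaving out each animal gave 0 to 1 called genes in BD against B and in V against B (1 without B4 in each). It gave 409 to 861 genes with an unadjusted p under 0.05 in V against B (highest without V4) and 440 to 1065 in V against BD (highest without BD2). B2m in V against BD had an unadjusted p of 0.0389 with median-ratio factors and 0.0461 with no filter, and 0.0229 to 0.122 when each animal was left out (under 0.05 without B3, B6, BD2, V4 or V5), with no adjusted p under 0.1. Tapbp in BD against B was under 0.05 without B3 (0.04), B4 (0.029) or BD6 (0.0373), again with no adjusted p under 0.1.

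Direction was not firm where log2 fold changes were small. In V against BD, Ciita turned to −0.0048 with median-ratio factors and to −0.06 under the block, and Psmb9 to −0.01 with median-ratio factors. Psmb8 in BD against B turned to −0.01 under voom. When each animal was left out, 14 of 27 member values kept their sign. In BD against B the others ran from −0.21 to 0.15 for Cd74, −0.0069 to 0.27 for Ciita, −0.13 to 0.12 for Nlrc5, −0.06 to 0.12 for Psmb8 and −0.16 to 0.08 for Psmb9. In V against B they ran from −0.05 to 0.20 for Nlrc5, −0.05 to 0.16 for Tap1 and −0.12 to 0.04 for Psmb9. In V against BD they ran from −0.36 to 0.0054 for Cd74, −0.11 to 0.15 for Ciita, −0.03 to 0.14 for Nlrc5, −0.03 to 0.15 for Tap2 and −0.13 to 0.11 for Psmb9. With lengths as deposited, signs turned in BD against B for Cd74 (0.55), Ciita (−0.56), Tap2 (−0.27), Tapbp (−0.98), Psmb8 (−0.19) and Psmb9 (0.18), in V against B for B2m (0.26), Nlrc5 (−0.95), Tap1 (−0.50), Tap2 (−0.21) and Tapbp (−1.67), and in V against BD for Nlrc5 (−0.26), Psmb8 (0.12) and Psmb9 (−0.53).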

Other observations

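Each of the 6 bonded males had a sibling among the bond-disrupted males, and the members were set side by side within these pairs. On the log2(FPKM + 1) scale and relative to the mean of its group, both siblings of number 3 (B3 and BD3) were above for all 9 members. Both siblings of number 2 (B2 and BD2) were below for 8 members, the exception being Nlrc5. Siblings fell on the same side of their group means in 5 of 6 pairs for Cd74, Ciita, Tap2 and Tapbp, in 4 of 6 for Tap1, Psmb8 and Psmb9, and in 3 of 6 for B2m and Nlrc5. The siblings of number 6 (B6 and BD6) fell on opposite sides for every member but Tapbp. Animals close to a group mean can change sides on the FPKM scale. These counts are descriptions, since the members move together and are not independent of one another.

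Within an animal, Cd74 came to 238 (V2) to 695 (BD1) times the level of Ciita, with a median of 483, and Nlrc5 to 1.42 (BD6) to 4.85 (B5) times Ciita, with a median of 2.57. The ratio of Psmb8 to Psmb9 was steadier, at 0.966 (V5) to 1.57 (BD2). Psmb10 came to 0.556 (BD2) to 1.04 (V5) times Psmb7, the subunit it replaces, with a median of 0.754.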
